A study of Mus musculus with 2 samples.

Results

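The S100 genes encode small calcium-binding proteins with EF-hand loops that mostly act as dimers, inside the cell as calcium-dependent partners of annexins, myosins and other proteins, and outside it as inflammatory signals. Their expression was compared between mouse mammary basal cells grown in 3D alone (ctrl) and basal cells grown beside M2-like macrophages (M2). The 10 genes described here (S100a1, S100a4, S100a6, S100a8, S100a9, S100a10, S100a11, S100a13, S100a14 and S100a16) were chosen by name among 49492 genes, and all 10 had at least 10 reads summed over the libraries, as did 19233 genes in all.

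Wild-type basal cells were sorted by FACS (fluorescence activated cell sorting) from mammary glands of adult female mice and embedded in matrix gel. No agent is listed for ctrl, and in M2 the cells shared the medium with macrophages for 11 to 14 days. The culture time of ctrl is not given in the labels, so equal times cannot be assumed. The study's methods describe macrophages that were derived from bone marrow, polarised with IL-4 and IL-13 and held in an insert above the gel, and a medium with EGF. Each group was 1 library, so no difference given here could be set against a spread between cultures, and the intervals cover counting error only.

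Reads in genes numbered 26912610 for ctrl and 29413844 for M2. Keratin genes of basal and luminal cells were among the most read markers in both, while Ptprc, which encodes the leukocyte antigen CD45, and the macrophage gene Adgre1 had 0 reads in both. Of 18 macrophage markers listed, 7 had 0 reads in both libraries. Others had reads, such as Arg1 (1507 in ctrl and 2090 in M2), Cd68 (170 and 165) and Aif1 (3 and 40). A count of 0 allows up to 3 reads, or 0.109 CPM in ctrl and 0.104 CPM in M2, where CPM are read counts scaled to a common library size.

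S100a8 and S100a9 encode the subunits of calprotectin, a zinc- and manganese-binding complex that is abundant in neutrophils and is also made by inflamed epithelium. S100a10 encodes p11, the annexin A2 partner that has lost calcium binding, and S100a4 encodes a partner of non-muscle myosin that is often used to label fibroblasts. These 4 genes were the members that differed by at least 2-fold between the libraries: S100a8, S100a9 and S100a10 were higher in M2 and S100a4 was lower, beside 9.53% of all genes compared that were higher and 7.82% that were lower. The other 6 members were within 2-fold.

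The start regions of 3 of these genes are shown because each holds the letters TATAAA, the core of a TATA box, the element that binds the TATA-binding protein. They are the 100 bases before and the 20 bases after the RefSeq start on GRCm38.p6, written 5′ to 3′ on the strand of the gene, with TATAAA in capitals. The regions are chr3:90603670-90603789 on the plus strand for S100a4, chr3:90668971-90669090 on the plus strand for S100a8 and chr3:90695702-90695821 on the minus strand for S100a9.
S100a4: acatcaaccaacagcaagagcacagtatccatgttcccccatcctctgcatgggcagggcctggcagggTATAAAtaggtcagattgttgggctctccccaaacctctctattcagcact
S100a8: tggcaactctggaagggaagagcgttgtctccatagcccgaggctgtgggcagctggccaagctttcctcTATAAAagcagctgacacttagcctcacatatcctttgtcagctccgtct
S100a9: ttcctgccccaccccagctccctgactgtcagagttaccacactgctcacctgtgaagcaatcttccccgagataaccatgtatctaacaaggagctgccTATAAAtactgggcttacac

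The letters began 31 bases before the listed start in S100a4 and 30 bases before it in S100a8, whereas in S100a9 they began at the listed start itself. RefSeq windows of 250 bases before to 50 bases after the start were found for 8 of the 10 members. TATAAA on either strand was found in 3 of their 9 windows (S100a16 has more than 1 start), beside 13.6% of 32851 windows in all. Counted by gene, it was in 3 of 8 members, beside 9.30% of the 11817 genes compared that have a window. The AP-1 motif TGANTCA was in the windows of S100a11 and S100a16 (7.81% of all promoters), and the C/EBP motif TTGCNNAA was in that of S100a9 (10.8%). The STAT motif TTCNNNGAA (8.30%) and the NF-κB consensus (4.51%) were found in no member window. No motif match overlapped another. S100a10 and S100a14 had no window in the table used.

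**Figure D1:**
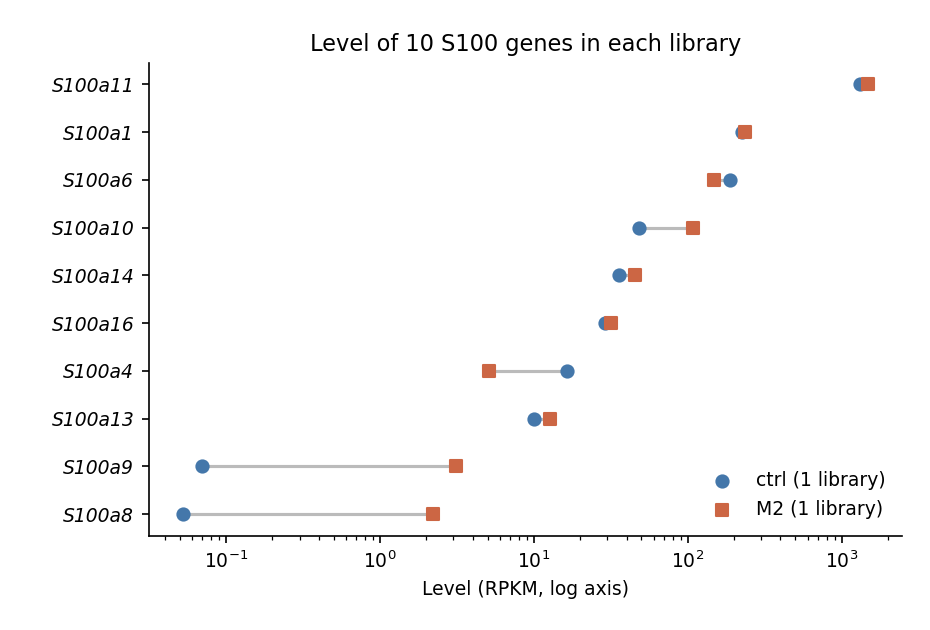
Level of each of the 10 S100 genes in RPKM on a log axis, with a circle for the ctrl library and a square for the M2 library joined by a line. S100a11 stands at 1307 and 1479 RPKM, and S100a8 and S100a9 are the lowest in both libraries.

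To compare levels between genes, reads were divided by the listed gene length (RPKM, which scales reads by library size and by length). S100a11, which encodes a partner of annexin A1, had the highest level with 1307 RPKM in ctrl and 1479 RPKM in M2. S100a1, best known from muscle calcium cycling, had 225 and 236 RPKM, and S100a6, which encodes calcyclin, had 189 and 149 RPKM. These 3 genes held 85.5% of the members' reads in ctrl and 80.4% in M2. The plot of levels shows that the order of the upper 6 genes was the same in both libraries, and that S100a4 and S100a13 exchanged places. All 10 members together made up 0.129% of all reads in ctrl, with a 95% Wilson interval from 0.128 to 0.131, against 0.137% in M2 (0.136 to 0.138).

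S100a8 (chromosome 3, 90668978 to 90670035) was covered by 1 read in ctrl and by 44 reads in M2, or 0.0364 and 1.53 CPM. Nearly all of its reads thus came from the M2 library. The log2 fold difference, M2 over ctrl with 1 read added to each count, was 4.42, and 5.39 with no read added (95% Clopper-Pearson interval 2.84 to 10.73). S100a9 (chromosome 3, 90692632 to 90695721) was covered by 1 read in ctrl and by 47 reads in M2, or 0.0364 and 1.63 CPM. Its difference was 4.52, and 5.49 with no read added (2.94 to 10.82). The calprotectin subunits thus had similar read numbers in each library and differed in the same direction. Both genes reached the minimum of 10 reads only through M2. Even in M2 their levels of 2.20 and 3.12 RPKM remained the lowest of the 10 members. In this mixed RNA, fewer cells of a type and less RNA per cell cannot be told apart.

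S100a10 (chromosome 3, 93555080 to 93564643) was covered by 1596 reads in ctrl and by 3747 in M2, or 47.9 and 107 RPKM. The M2 library was higher by a log2 fold difference of 1.16 (95% interval 1.08 to 1.25), a 2.24-fold difference. Variation between cultures could not be measured, and a test of edgeR that assumes it to be 0.2 (as a coefficient of variation) did not call S100a10.

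S100a4 (chromosome 3, 90603771 to 90606045) was covered by 263 reads in ctrl and by 86 in M2, or 16.4 and 5.11 RPKM. It was the member with the lowest value, and ctrl was 3.18-fold higher. The log2 fold difference was -1.67 (95% interval -2.05 to -1.33). Of its exon bases 51.7% are shared with Gm42674, a gene on the same strand annotated as protein-coding, which had 265 and 85 reads and a difference of -1.70. Reads of these genes cannot be told apart. No other member shared exon bases with another listed gene. The same test with a value of 0.4 did not call S100a4.

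**Figure D2:**
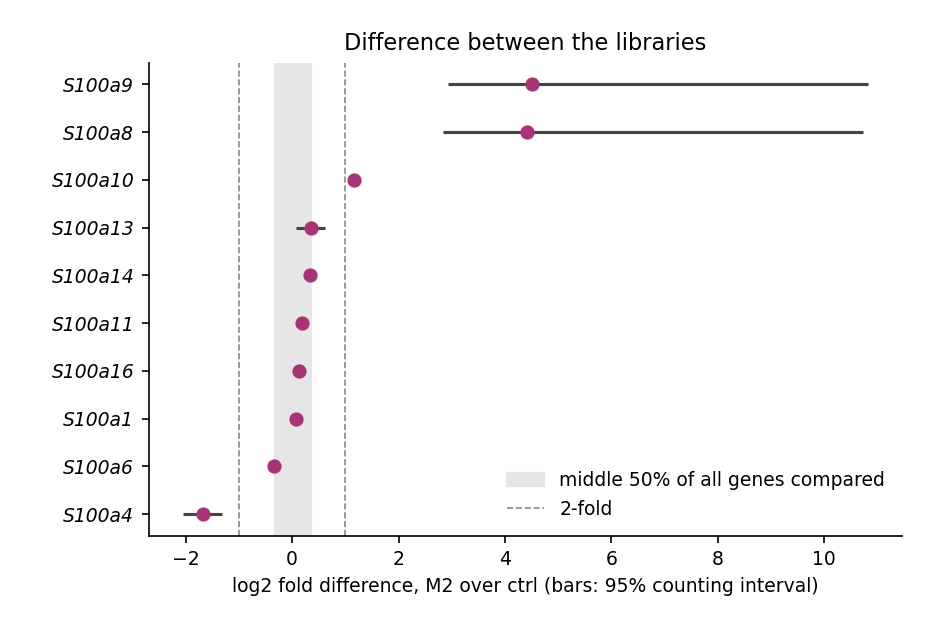
log2 fold difference of each member, M2 over ctrl, with 95% counting intervals as bars; the grey band holds the middle 50% of all genes compared and dashed lines mark 2-fold. S100a8, S100a9 and S100a10 lie above the upper line and S100a4 below the lower one.

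The remaining members had smaller differences. S100a6 (7095 and 5859 reads) had a value of -0.35 (95% interval -0.40 to -0.30), and no member besides S100a4 and S100a6 was below 0. S100a13, whose protein takes part in the export of FGF1 and IL-1α, had 196 and 262 reads and a difference of 0.35 (0.08 to 0.62). S100a14, an epithelial member, had 1693 and 2247 reads and a difference of 0.34 (0.25 to 0.43). The plot of differences places these values close to the edges of the grey band of all genes, which ran from -0.32 to 0.35. S100a11 (18350 and 21774 reads), S100a16 (1290 and 1475 reads) and S100a1 (4296 and 4723 reads) had differences of 0.18 (0.15 to 0.21), 0.12 (0.02 to 0.23) and 0.07 (0.01 to 0.13). The sign for S100a1 was not stable, with -0.0023 when libraries were scaled by total reads without mitochondrial genes.

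Low counts pass 2-fold more often than the 9.53% of all genes, and 16.7% of genes with 20 to 100 reads summed, the range of S100a8 and S100a9, were higher in M2. Among genes with over 100 reads the share past 2-fold in either direction was 11.0%, beside 2 of the 8 members with that many reads. The median log2 fold difference was 0.26 over the members and -0.0032 over all genes compared, and 8 of the 10 members had a positive value, as did 49.7% of all genes. Of these 8, S100a8 and S100a9 reached the minimum of 10 reads only through M2, and the sign for S100a1 was not stable. None of the 3 other S100 genes compared, described next, had a positive value.

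Of 8 other S100 genes listed, 7 were in the table and 3 had enough reads to be compared. S100b, known from glia, had 32 and 18 reads and a log2 fold difference of -0.87 (95% interval -1.82 to -0.02). S100a3 (13 and 11 reads) and S100a7a (11 and 7 reads) had differences of -0.29 and -0.65, with intervals that included 0. S100a2 and S100a5 had 0 reads in both libraries, and S100g and S100z had at most 2 reads in either.

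The members lie on chromosome 3 (GRCm38) in 2 groups. From S100a1 to S100a9, 8 genes span 185 kb, and S100a11 and S100a10 follow 2825 kb further on, beyond the genes of the cornified envelope, the protein shell of squamous cells. S100a8 and S100a9 are neighbours with a gap of 22.6 kb and lie on opposite strands. Between S100a1 and S100a10 the table lists 29 genes with enough reads that are not members, of which 7 were at least 2-fold higher in M2 and 12 were lower, or 11 of 28 without Gm42674, whose reads cannot be told apart from those of S100a4. The shares of all genes compared were 9.53% and 7.82%. Low counts pass 2-fold more often, and these shares are not matched to the read numbers of the neighbours. Several called neighbours reached the minimum of 10 reads only through the library where they were higher, such as Sprr4 (22 and 1 reads) and Sprr2a1 (4 and 41 reads). Among the 7 higher genes, Sprr2a1, Sprr2a2 and Sprr2a3 are close copies that could exchange reads. Pglyrp3, a peptidoglycan recognition protein gene, had 46 and 379 reads and a log2 fold difference of 2.95, and the late envelope gene Lce1h had 16 and 78 reads and a difference of 2.15. In the other direction, the filaggrin gene Flg (102 and 9 reads), the involucrin gene Ivl (186 and 31 reads) and Sprr1a (445 and 76 reads) had differences of -3.43, -2.62 and -2.60. Members and their neighbours therefore went both ways within the same interval.

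**Figure D3:**
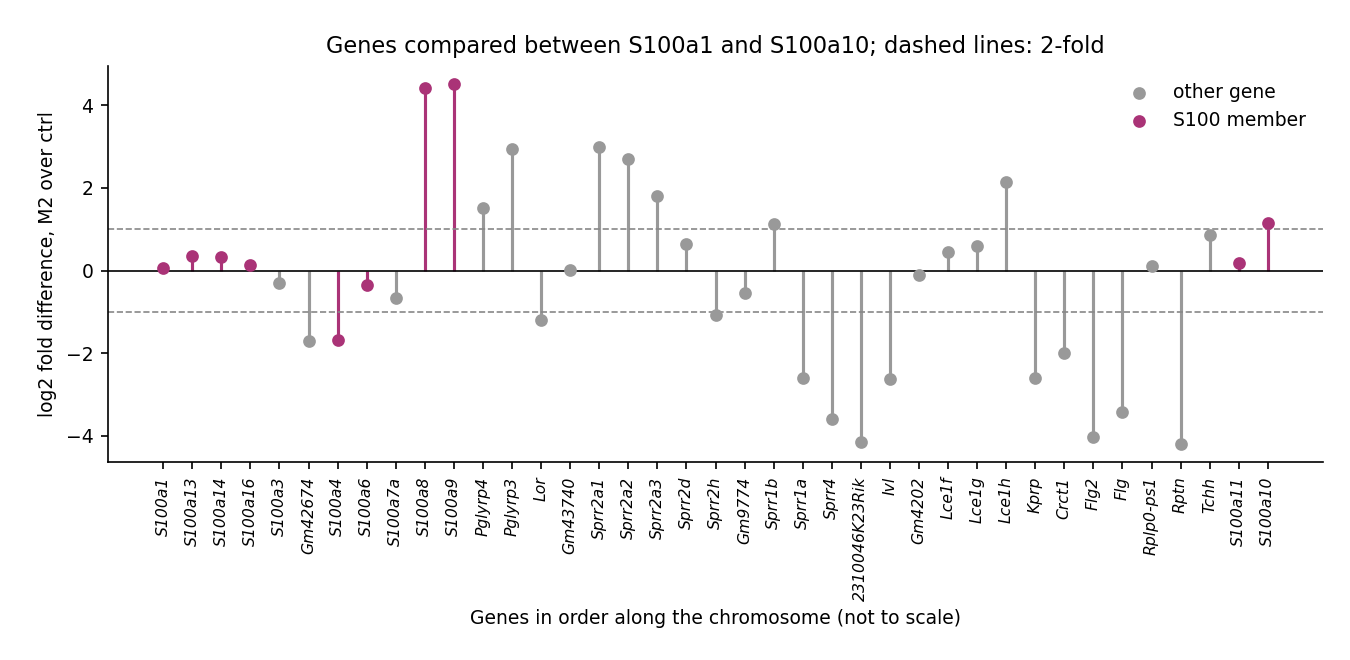
log2 fold difference, M2 over ctrl, of the 39 genes compared between S100a1 and S100a10, in their order along chromosome 3. S100 members are coloured; genes higher and genes lower in M2 are both found along the interval, and the lowest values lie between Sprr1a and Rptn.

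The fused-type S100 genes carry an S100 domain joined to long repeats and lie within that interval. Of 7 such genes 4 were compared, and 3 of these were lower in M2 and 0 higher, beside 7.82% and 9.53% of all genes compared. Flg2 (30 and 1 reads) and Rptn (34 and 1 reads) had 95% intervals from -10.33 to -2.39 and from -10.50 to -2.58, with values of -4.02 and -4.20. With Flg (102 and 9 reads), these were the 3 lower genes, and all 3 reached the minimum of 10 reads only through ctrl. The trichohyalin gene Tchh, with 292 and 561 reads, had a difference of 0.87 (0.67 to 1.08), so the family did not move as a block.

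Inside the cell, S100 proteins act through partners, and 15 partner genes were examined. Of these, 1 was at least 2-fold higher in M2 and 0 were lower, beside 9.53% and 7.82% of all genes compared. The higher gene was Il1a, whose export involves S100A13, with 9 and 920 reads and a log2 fold difference of 6.46 (95% interval 5.68 to 7.74). Il1a reached the minimum of 10 reads only through M2. Anxa2, the partner of S100a10, had 15067 and 16307 reads and a difference of 0.04 (0.01 to 0.08). The ratio of S100a10 to Anxa2 in RPKM was 0.326 in ctrl against 0.707 in M2, and its log2 change was 1.12 (1.03 to 1.21, counting error). For S100a11 and Anxa1, which had 36547 and 70714 reads and a difference of 0.88, the RPKM ratio went from 2.56 to 1.57, a log2 change of -0.71 (-0.74 to -0.67). The 2 annexin pairs thus shifted in opposite directions. Ahnak and Myh9, also among the partners with the most reads, had differences of -0.68 and 0.06. The median over the 15 partners was 0.30.

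Secreted S100 proteins are sensed by several receptors, of which 9 were examined, with 2 higher and 1 lower in M2 and a median of 0.07. Of all genes compared, 9.53% were higher and 7.82% lower. Bsg, which encodes basigin, a receptor for S100A9, had 9435 and 23034 reads and a log2 fold difference of 1.22 (95% interval 1.18 to 1.25). Cd14, the co-receptor of TLR4, had 803 and 9114 reads and a difference of 3.43. Tlr4 itself, with 678 and 500 reads, had a difference of -0.51, and Ager, which encodes the receptor RAGE, had 39 and 49 reads and a difference of 0.25 (-0.38 to 0.91). Receptor genes thus did not share a direction. The 1 lower gene was Cd36, with 16 reads in ctrl and 0 in M2, and it reached the minimum of 10 reads only through ctrl. Alcam (4721 and 3864 reads) and Nptn (4219 and 3314 reads), with many reads, had differences of -0.36 and -0.42.

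Among 11 genes of transcription factors with reported links to S100a8 and S100a9, 1 was at least 2-fold higher and 1 lower, with a median of 0.12. Over all genes compared the shares were 9.53% and 7.82%. Fosl1 had 70 and 175 reads and a difference of 1.24, and Fos had 42339 and 11153 reads and a difference of -1.99. The other most read genes of the list, Jun, Stat3 and Junb, had differences of -0.45, 0.58 and -0.73.

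**Figure D4:**
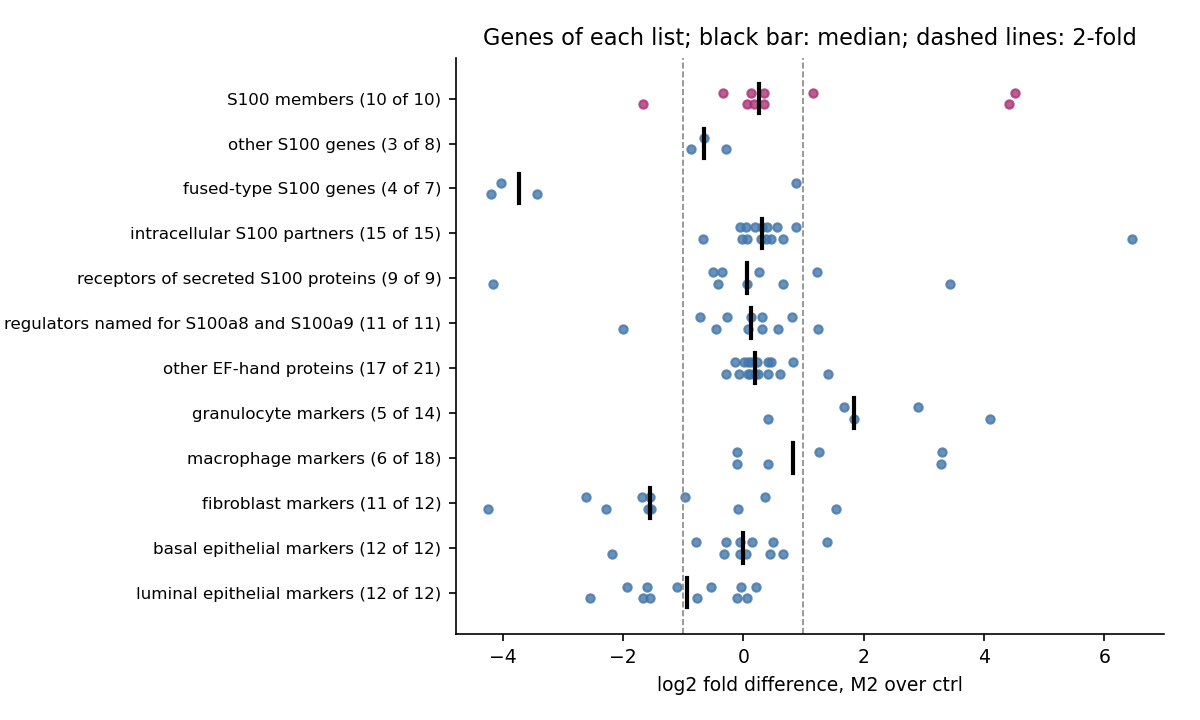
log2 fold difference, M2 over ctrl, of every gene compared in the 12 gene lists; each point is a gene, the black bar is the median, and the numbers give how many of the listed genes were compared. The S100 members have a median of 0.26, the fibroblast markers of -1.56 and the granulocyte markers of 1.84.

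Because calprotectin genes are used as marks of neutrophils, and S100a4 as one of fibroblasts, markers of other cells were counted beside them. Of 14 granulocyte markers, 6 had 0 reads in both libraries, namely Ly6g, Mpo, Elane, Csf3r, Cebpe and Retnlg. The list summed to 22.9 CPM in ctrl and 115 CPM in M2, and 4 of its 5 compared genes were higher in M2, beside 9.53% of all genes compared. The 4 were Ltf (271 and 2133 reads), whose product lactoferrin is also a milk protein, Mmp9 (330 and 1104 reads), Mmp8 (0 and 17 reads) and Camp (3 and 14 reads). The median of the 5 was 1.84, the value of Camp. Mmp8 and Camp reached the minimum of 10 reads only through M2. Ngp (2 and 0 reads), Fpr1 and Cxcr2 (0 and 1 reads each) were below it and not compared. The log2 fold differences were 2.90 for Ltf and 1.67 for Mmp9. The fifth, the granule protease gene Prtn3, had 22 and 31 reads and a difference of 0.41 (95% interval -0.41 to 1.28). Granulocyte markers were thus partly at 0 and partly present. The whole list had 628 reads in ctrl and 3301 reads in M2, and Ltf and Mmp9 together held most of them in each library. The higher sum in M2 therefore rested mainly on these 2 genes.

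Of 18 macrophage markers, 7 had 0 reads in both libraries, among them Adgre1, Ptprc, Tyrobp and Fcer1g, and Lyz2 had 3 and 1 reads. The list summed to 65.1 CPM in ctrl and 84.6 CPM in M2. Of its 6 compared genes, Aif1 (3 and 40 reads), Cd163 (2 and 30 reads) and Itgam (3 and 9 reads) were higher and 0 lower, with a median of 0.83. The shares of all genes compared were 9.53% and 7.82%. Aif1, Cd163 and Itgam reached the minimum of 10 reads only through M2. Markers below that minimum were not compared, some with more reads in ctrl (Lyz2, Ctss) and some with more in M2 (Mrc1, C1qa). The most read genes of the list, Arg1 (1507 and 2090 reads), Cd68 (170 and 165 reads) and Csf1r (94 and 92 reads), had differences of 0.40, -0.11 and -0.10. The part of any such cells in the S100a8 and S100a9 reads was not tested.

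Fibroblast markers summed to 3874 CPM in ctrl and 2827 CPM in M2, and 7 of 11 compared genes were lower in M2 and 1 was higher, with a median of -1.56. For this and the next 2 lists, the shares of all genes compared were 7.82% lower and 9.53% higher. The lower fibroblast markers were Col6a3, Col3a1, Pdgfrb, Col1a2, Col5a2, Mmp2 and Lum, with log2 fold differences from -4.24 to -1.53. Of these, Lum (10 and 3 reads) reached the minimum of 10 reads only through ctrl. Dcn, with 51 and 157 reads, was higher by 1.53, and Postn, the gene with the most reads (72824 and 71795), had a difference of -0.09. S100a4 thus went in the same direction as most of these markers, and the part of fibroblasts in its value was not tested. Basal epithelial markers had a median of -0.0057, with Krt17 higher (1.39) and Oxtr lower (-2.18) among 12 genes. Krt14, Krt5, Itgb1 and Tagln, the most read, had differences of -0.32, 0.50, 0.66 and -0.05. Luminal markers had a median of -0.94, with 6 of 12 lower and 0 higher. The lower genes were Pgr, Esr1, Kit, Prlr, Foxa1 and Elf5, from -2.54 to -1.11, while the highly read Krt8, Epcam, Krt18 and Krt19 had 0.21, 0.06, -0.05 and -0.78.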

How the data were processed

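The authors deposited counts of reads for each gene that had not been normalized. Per the labels, a SMARTER mRNA kit was used for the libraries. GRCm38 and mm10 are named as genome builds in the submitters' processing notes, while the aligner, counting tool, strand setting and filters are not given in the sources used here. The listed coordinates of the members equal those of GENCODE M21 on GRCm38.

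Genes with at least 10 reads summed were compared. Libraries were scaled with TMM (trimmed mean of M values) in edgeR 4.0.16 under R 4.3.3, with factors of 1.02 (ctrl) and 0.980 (M2). Every log2 fold difference used a pseudocount of 1, and a gene was called at 2-fold or more. The test of edgeR was exactTest with an assumed variation, at an adjusted p under 0.05 and 2-fold. With 1 library per group such a test, like the exact binomial test tried, compares those libraries and not the conditions. Intervals are 95% Clopper-Pearson intervals of a gene's share of reads, of ratios normal approximations on the log scale. If no molecular identifiers were used, copies of 1 molecule may have been counted more than once. The functions were tested on simulated counts that held counting error only, so that test does not cover variation between cultures. Promoter sequences come from RefSeq (GRCm38.p6), and motifs were searched on both strands.

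The members, the 12 gene lists and the motifs were chosen with earlier results of these data known. Named were all members, other S100 genes with at least 10 reads, the called and up to 4 most read genes of the other lists, and from the chromosomal interval the 4 highest and 4 lowest with at least 50 reads in a library. Any other named gene was chosen after its values were seen.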

Additional observations from a re-analysis of the deposited data

How the results depend on the processing

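Values were recomputed under 14 settings, each of which changes 1 choice. The count of 3 members higher and 1 lower was the same under 4 other scalings, both other pseudocounts, no filter beyond 1 read, removal of a trend with gene length, the adjusted exact binomial test and a 95% interval wholly past 2-fold. The shares of all genes moved under these settings, from 4.88% to 11.7% higher and from 3.53% to 14.8% lower. The smallest shares were those of the interval wholly past 2-fold. With a minimum of 1 CPM in each library, S100a8 and S100a9 could not be compared, which left 1 member higher and 1 lower (5.46% and 4.0% of all genes compared) and a median of 0.15. With a 4-fold threshold 2 members were higher and 0 lower (3.20% and 2.57% of all genes). In the exactTest, a variation of 0.4 between cultures was assumed and there were also 2 higher and 0 lower (0.910% and 0.676%), and with 0.2 there were 2 higher and 1 lower (5.01% and 3.59%). With no filter beyond 1 read the shares of all genes were 11.7% and 14.8%. Over the scalings, pseudocounts, filters and length trend, S100a8 ran from 2.96 to 4.82, S100a9 from 3.05 to 4.92, S100a10 from 1.09 to 1.18 and S100a4 from -1.74 to -1.63. Depth limits S100a8 and S100a9, which rest on 1 read each in ctrl. No paired analysis was possible because ctrl and M2 were sequenced once each.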

Other observations

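Calcium-binding proteins with EF-hands outside the S100 family were compared as well. Of 21 listed genes 17 were compared, and 1 was at least 2-fold higher in M2 and 0 lower, with a median log2 fold difference of 0.20. Over all genes compared, 9.53% were higher and 7.82% lower. Efhd1, with 35 and 99 reads, was the higher gene, with a difference of 1.40 (95% interval 0.86 to 2.03). The calmodulin gene Calm2 had 21163 and 33801 reads and a difference of 0.61, and Calu, which encodes calumenin of the endoplasmic reticulum, had 18644 and 26824 reads and a difference of 0.46. Nucb1 and Calm3, next in reads, had differences of -0.29 and 0.01.

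TATAAA was found in the RefSeq window of 15.6% of 1075 genes that were at least 2-fold higher in M2 and of 13.5% of 798 genes that were lower, beside 8.28% of 9944 genes within 2-fold. These shares are a description of the 2 libraries and were not tested.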
